A study of Homo sapiens with 6 samples.

Results

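The genes described here are YAP1 and WWTR1, which encode the transcriptional coactivators YAP and TAZ, TEAD1 and TEAD4, which encode DNA-binding factors that YAP and TAZ act through, and 6 genes known as their targets and regulators: CCN1 (formerly CYR61), CCN2 (formerly CTGF), ANKRD1, AMOTL2, LATS2 and PTPN14. Every probe set that the array's annotation gives to 1 of these 10 genes was taken, which gave 13 probe sets of 22215 tested; 9 of the 10 genes had a probe set, out of 11963 genes measured, and LATS2 is not analysed here because no probe set is annotated to it. A probe set is a group of short oligonucleotides on the array that together report 1 transcript or a few related ones. RNA was measured in WZR6 cells (3 arrays) and in parental NCI-H1975 cells (3 arrays). NCI-H1975 cells come from a human non-small cell lung cancer, carry a mutant EGFR and are sensitive to WZ4002, which inhibits the mutant kinase. WZR6 is a single clone, number 6, picked from NCI-H1975 cells that had been grown in rising amounts of WZ4002 and were resistant to it, so differences from the parental line can be those of 1 clone. Both groups were growing exponentially in serum-containing medium, and the labels do not say whether WZ4002 was present when they were collected. The study is about resistance to EGFR inhibitors through ERK, and its arrays set the resistant clone beside the line it was made from.

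In the Hippo pathway, the kinases MST1 and MST2 with the scaffold SAV1 activate the kinases LATS1 and LATS2 with their MOB1 partners, and the LATS kinases phosphorylate YAP and TAZ, which are then held in the cytoplasm or degraded. YAP and TAZ that escape phosphorylation enter the nucleus, bind TEAD factors and raise transcription of genes such as CCN1, CCN2 and ANKRD1, whose transcripts are widely used as a readout of YAP and TAZ activity. The activity of YAP and TAZ is set largely after translation, by phosphorylation and location, which an expression array does not measure.

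The 6 arrays were alike within a group. Across probe sets, which are not independent replicates, log2 intensities of 2 arrays of the same group correlated at 0.9978 to 0.9983 (Pearson's r). Those of arrays of different groups correlated at 0.9815 to 0.9826. Of the 22215 probe sets 41.1% were called different between WZR6 and parental cells, 21.6% higher and 19.5% lower, at an adjusted p under 0.05 in limma. This share is large, so a call alone says little about a gene, and the sizes below matter more. As a check of the label, KRT18, an epithelial keratin, had a mean log2 intensity of 14.02 ± 0.04 (SD, n = 3) in WZR6 cells and 14.14 ± 0.04 in parental cells, whereas EPCAM, an epithelial adhesion molecule, averaged 6.17 ± 0.26 in WZR6 cells and 12.43 ± 0.08 in parental cells. The linear intensities of 6 epithelial markers summed to 26832 to 27652 in WZR6 arrays and 42325 to 43275 in parental arrays, and 5 of the 6 fell. Those of 5 leukocyte markers summed to 308 to 333 in WZR6 and 526 to 582 in parental arrays. Of the 5, 2 (PTPRC and CD2) were in both groups dimmer than 5.27, the lower quartile of the whole table on the log2 scale, and 2 fell. These 2 were CD14, with a mean log2 intensity of 7.49 in WZR6 and 8.45 in parental cells, and ITGB2, with 5.49 and 6.86. The linear intensities of 8 endothelial and fibroblast markers summed to 1413 to 1445 in WZR6 and 2306 to 2494 in parental arrays, with 2 higher (CDH5 and PDGFRB) and 2 lower (COL1A1 and COL1A2). COL1A1 averaged 6.60 in WZR6 and 9.60 in parental cells on the log2 scale, and COL1A2 9.73 and 10.29. The part of these shifts in the results below was not tested.

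The coactivators themselves differed in opposite directions, YAP1 by little and WWTR1 by an amount that depends on the probe set. In RNA from whole cultures, fewer cells with a transcript and less of it per cell cannot be told apart. YAP1 rose slightly in WZR6: its 1 probe set read 9.55, 9.57 and 9.69 on the log2 scale in WZR6 arrays, against 9.36, 9.31 and 9.39 in parental arrays. All 3 WZR6 arrays lay above all 3 parental arrays, and the difference was 1.19-fold (95% interval 1.09 to 1.31, adjusted p = 0.00987 in limma). WWTR1 fell on each of its 3 probe sets. The brightest, 202133_at, read 11.42, 11.44 and 11.42 in WZR6 arrays, against 11.61, 11.70 and 11.82 in parental arrays, which is 1.22-fold lower (1.10 to 1.35, adjusted p = 0.00902 in limma). Probe set 202132_at read 9.85, 9.91 and 9.87 in WZR6 arrays and 10.25, 10.39 and 10.17 in parental arrays, 1.31-fold lower (1.18 to 1.47). Probe set 202134_s_at read 7.51, 7.40 and 7.51 in WZR6 arrays and 8.84, 8.50 and 8.66 in parental arrays, 2.29-fold lower (1.98 to 2.66, adjusted p = 6.94e-05 in limma). The groups did not overlap on any of the 3. The 95% interval of 202134_s_at, -1.41 to -0.98 on the log2 scale, shares no value with those of 202132_at (-0.55 to -0.24) and 202133_at (-0.43 to -0.14), so the size of the fall in WWTR1 depends on which probe set is read. Whether the 3 probe sets detect the same transcripts of the gene cannot be told from the files.

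The DNA-binding partners TEAD1 and TEAD4 did not pass the test. TEAD1 read 8.92, 8.78 and 8.36 in WZR6 arrays, against 8.24, 8.93 and 8.43 in parental arrays. The groups overlapped, and this probe set had the widest spread of the 13, with an SD of 0.29 in WZR6 and 0.36 in parental cells. Its difference was 0.15 ± 0.21 (SE, adjusted p = 0.622 in limma), with an interval from -0.34 to 0.64 on the log2 scale that leaves room for a change of up to 1.56-fold upwards or 1.27-fold downwards. TEAD4 was measured more tightly. Its brightest probe set, 204281_at, read 8.91, 8.93 and 8.82 in WZR6 arrays and 9.08, 9.05 and 8.86 in parental arrays, and its other, 41037_at, 8.20, 8.09 and 8.13 against 8.01, 8.18 and 8.16. Neither separated the groups, and the intervals of the 2 differences, -0.29 to 0.06 and -0.13 to 0.17, reach from 1.22-fold lower to 1.13-fold higher between them.

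**Figure D1:**
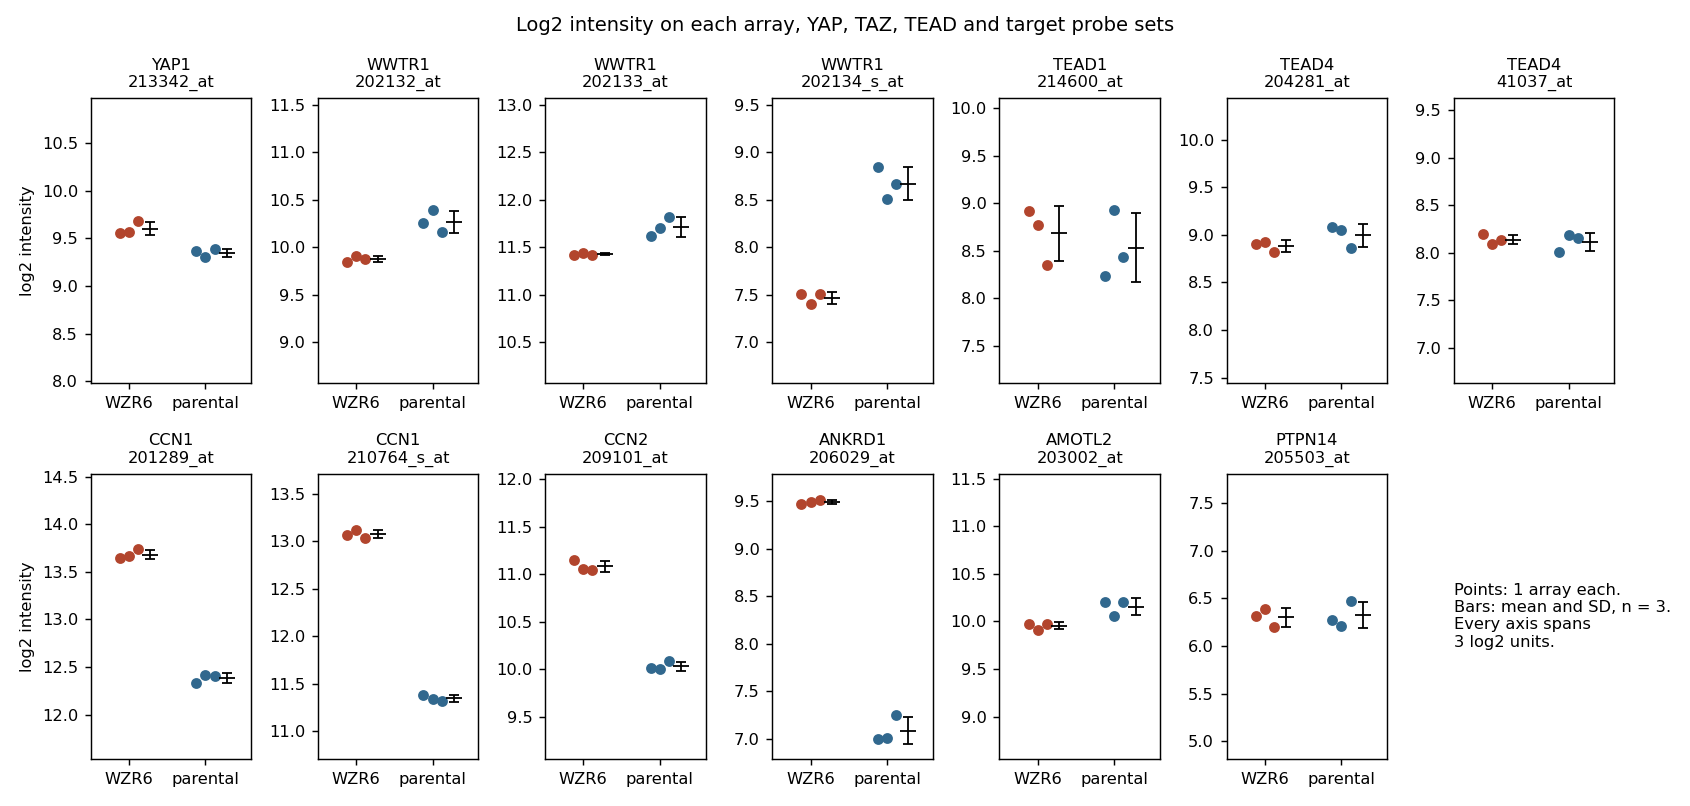
Log2 intensity (y axis) on each of the 3 WZR6 and 3 parental arrays for the 13 probe sets of YAP1, WWTR1, TEAD1, TEAD4, CCN1, CCN2, ANKRD1, AMOTL2 and PTPN14; points are arrays, bars the mean and SD, and every panel spans the same range of log2 units. The groups stand well apart for CCN1, CCN2, ANKRD1 and WWTR1 probe set 202134_s_at, and overlap for TEAD1, TEAD4 and PTPN14.

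ANKRD1, CCN1 and CCN2, the targets most used as a readout, all rose in WZR6, each by more than 2-fold. ANKRD1, an ankyrin repeat protein of the nucleus and the sarcomere that is best known from stressed heart muscle, read 9.468, 9.486 and 9.517 in WZR6 arrays, against 7.002, 7.014 and 7.247 in parental arrays. The 3 WZR6 values lay within 0.05 of each other, and the difference was 5.29-fold (4.67 to 5.98, adjusted p = 1.67e-06 in limma), the 26th largest increase among all probe sets. CCN1 and CCN2 encode secreted matrix-associated proteins that bind integrins. CCN1 read 13.64, 13.67 and 13.74 in WZR6 arrays and 12.33, 12.42 and 12.41 in parental arrays on its brightest probe set, 201289_at, a rise of 2.46-fold (2.25 to 2.68, adjusted p = 5.06e-06 in limma). On its other probe set, 210764_s_at, it read 13.07, 13.12 and 13.03 in WZR6 arrays and 11.39, 11.35 and 11.32 in parental arrays, a rise of 3.30-fold (3.05 to 3.58). Both probe sets separated the groups completely, but the 2 intervals do not meet, so the files give no single size for the rise of the gene. CCN2 read 11.149, 11.056 and 11.043 in WZR6 arrays, against 10.013, 9.999 and 10.083 in parental arrays, or 2.07-fold higher (1.90 to 2.26, adjusted p = 1.31e-05 in limma). The 4 probe sets of these 3 genes all passed 2-fold upwards, which 1.14% of all probe sets did, while WWTR1 probe set 202134_s_at was the 1 member past 2-fold downwards, as 2.65% of all probe sets were.

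The promoters of CCN2 and ANKRD1 are printed here because both genes rose and because the element that TEAD factors bind can be seen in them. Capitals mark GGAATG or its reverse complement CATTCC, the core of that element, searched on both strands in the RefSeq promoter windows of GRCh38.p14, which run from 250 bases before to 50 bases after a gene's start.
CCN2 (chr6:131951323-131951622, minus strand): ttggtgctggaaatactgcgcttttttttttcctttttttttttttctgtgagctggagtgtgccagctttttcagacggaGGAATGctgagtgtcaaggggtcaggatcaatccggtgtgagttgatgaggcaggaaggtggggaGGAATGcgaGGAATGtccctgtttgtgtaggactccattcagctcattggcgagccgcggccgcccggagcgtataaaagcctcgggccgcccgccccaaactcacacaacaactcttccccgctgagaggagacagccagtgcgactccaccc
ANKRD1 (chr10:90921038-90921337, minus strand): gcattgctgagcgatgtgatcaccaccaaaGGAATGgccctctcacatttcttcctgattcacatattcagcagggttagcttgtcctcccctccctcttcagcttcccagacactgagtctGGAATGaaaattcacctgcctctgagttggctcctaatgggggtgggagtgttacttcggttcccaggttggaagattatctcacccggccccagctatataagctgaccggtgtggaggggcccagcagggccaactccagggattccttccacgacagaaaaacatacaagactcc
CCN2 holds the 6 letters 3 times, beginning 169, 104 and 95 bases before the start, and ANKRD1 holds them 2 times, at 220 and 128 bases before it. No 2 of these matches overlap. Of all 35116 windows 14.0% hold at least 1 match, 1.37% at least 2 and 0.128% at least 3. The windows of the measured targets AMOTL2 and PTPN14, which did not rise, are also shown, each with 1 match. Because CCN2 and ANKRD1 were picked with the element already seen in them, the number of matches cannot be set against the rise.
AMOTL2 (chr3:134374398-134374697, minus strand, the second of its 2 windows): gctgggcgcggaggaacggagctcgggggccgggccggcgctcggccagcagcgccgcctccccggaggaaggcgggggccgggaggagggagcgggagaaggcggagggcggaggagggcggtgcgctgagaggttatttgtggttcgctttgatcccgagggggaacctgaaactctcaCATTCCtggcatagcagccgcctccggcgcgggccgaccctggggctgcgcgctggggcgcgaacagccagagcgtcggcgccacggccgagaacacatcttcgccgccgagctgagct
PTPN14 (chr1:214551553-214551852, minus strand): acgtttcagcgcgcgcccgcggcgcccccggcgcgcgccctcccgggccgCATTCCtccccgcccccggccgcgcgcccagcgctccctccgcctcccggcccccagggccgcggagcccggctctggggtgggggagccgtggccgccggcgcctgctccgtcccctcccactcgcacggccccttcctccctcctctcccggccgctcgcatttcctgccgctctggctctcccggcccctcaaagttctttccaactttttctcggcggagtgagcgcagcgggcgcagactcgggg
The match lies 69 bases before the start in AMOTL2 and 200 bases before it in PTPN14, and the first AMOTL2 window has none. YAP1, which rose slightly, has 1 match, at 162 bases before its start, LATS2 has 1 at position 10 after it, and neither window of WWTR1 has one. A window was found for 7 of the 10 genes, while CCN1, TEAD1 and TEAD4 have no entry. Of the 7, 6 hold a match in some window, against 16.7% of all genes with a window. The genes were listed as partners, known targets and regulators of YAP and TAZ, so a high share was built into the choice. A match describes the letters in the window and does not show that a factor binds there.

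The other targets did not follow. AMOTL2, an angiomotin family protein that binds YAP and TAZ and restrains them, and is itself a YAP target, read 9.97, 9.91 and 9.97 in WZR6 arrays, against 10.20, 10.05 and 10.21 in parental arrays. It was lower by 1.15-fold (1.04 to 1.27, adjusted p = 0.0313 in limma) and the groups did not overlap. This call was lost in 7 of 16 alternatives, among them leaving out WZR6 replicate 1, 2 or 3 or parental replicate 1 or 3, with adjusted p-values up to 0.100. Over all 16 alternatives the difference lay between -0.25 and -0.16. PTPN14, a tyrosine phosphatase that binds YAP and keeps it out of the nucleus, read 6.321, 6.394 and 6.195 in WZR6 arrays, against 6.276, 6.214 and 6.476 in parental arrays. The groups overlapped, and the difference of -0.02 ± 0.09 (SE, adjusted p = 0.890 in limma) has an interval that reaches from 1.17-fold lower to 1.14-fold higher. This probe set is dim, with every array below 7.38, the median of all values on the log2 scale.

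Over the 13 probe sets, 5 were called higher, 4 lower and 4 were not called, beside 21.6% higher and 19.5% lower among all probe sets. The 5 that rose belong to YAP1, CCN1, CCN2 and ANKRD1, and the 4 that fell to WWTR1 and AMOTL2. The groups did not overlap for 9 of 13, against 51.1% of all probe sets. By the brightest probe set of each gene, 4 of 9 genes rose, 2 fell and 3 were not called, with a median difference of 0.15 on the log2 scale, against 0.02 over all genes, of which 23.3% were called higher and 22.7% lower. None of the 13 probe sets had a group mean below 5.27, the lower quartile of all values.

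**Figure D2:**
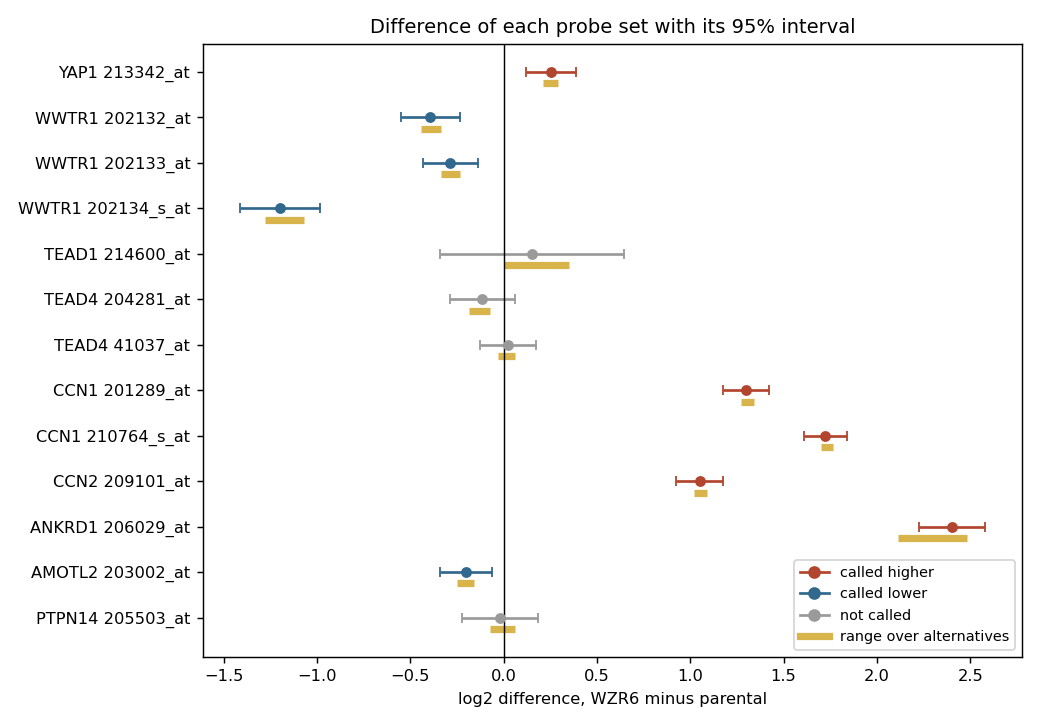
Log2 difference, WZR6 minus parental (x axis), for each of the 13 probe sets (y axis), with its 95% interval from limma; the band under each point runs from the lowest to the highest difference over the alternative settings. ANKRD1, CCN1 and CCN2 lie between 1.05 and 2.40, the 3 WWTR1 probe sets between -1.20 and -0.29, and the intervals of TEAD1, TEAD4 and PTPN14 cross 0.

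Further targets from a published YAP and TAZ signature moved both ways. Of 16 genes beyond the ones above 14 were measured: 7 rose, 4 fell and 3 were not called, so 78.6% were called against 46.0% of all genes, and their median difference was 0.14 on the log2 scale. These shares are not matched for brightness. Of the 14 genes 1 had a group mean below the lower quartile, against 2530 of all 11963 genes. With only probe sets above the median mean kept, 8027 were called over the array, in place of 9131, and 9 of these targets. The part of brightness in the share was not tested. NUAK2 and CCDC80 are not analysed here. The largest changes were decreases. IGFBP3, a secreted binder of insulin-like growth factors, read 9.56, 10.06 and 10.12 in WZR6 arrays and 12.37, 12.35 and 12.30 in parental arrays, 5.37-fold lower (4.24 to 6.79), with WZR6 replicate 1 below the other two. NT5E, the ecto-enzyme CD73 that makes adenosine, read 8.55, 8.70 and 8.65 in WZR6 arrays and 10.84, 10.81 and 11.003 in parental arrays, 4.76-fold lower (4.24 to 5.34). Both are thus lower by about as much as ANKRD1 is higher. MYOF, the membrane repair protein myoferlin, fell 1.75-fold and DOCK5, an activator of the GTPase RAC, fell 1.52-fold, although DOCK5 sat at a log2 intensity of 6.35 in WZR6 cells and 6.95 in parental cells and was level with the floor when values below the median were raised to it. GADD45A, a stress and growth arrest protein, rose 2.03-fold and TGFB2, a TGF-beta ligand, 1.94-fold. In limma all 6 had an adjusted p of at most 0.000105. The letters of the TEAD core element were found in a promoter window of 4 of the 11 signature genes that have one, against 16.7% of all genes: AXL and TGFB2, which rose, FOXF2, which was not called, and NUAK2. They were not found in those of IGFBP3, NT5E and MYOF, which fell, of F3 and RBMS3, which rose, of FJX1, which was not called, or of CCDC80. The signature genes were listed as targets too, so their share with a match also follows from the choice.

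Among other partners of TEAD, 4 of 6 genes were measured. TEAD3, another member of the TEAD family, read 7.83, 7.75 and 7.80 in WZR6 arrays, against 7.19, 6.93 and 6.99 in parental arrays. It rose 1.69-fold (adjusted p = 0.000244 in limma), while TEAD1 and TEAD4 did not pass the test. VGLL4, a cofactor that competes with YAP for TEAD, read 9.07, 8.99 and 9.01 in WZR6 arrays and 9.57, 9.62 and 9.52 in parental arrays, 1.46-fold lower (1.34 to 1.59, adjusted p = 0.000173 in limma), and its second probe set was lower too, by 0.35 on the log2 scale. The cofactors VGLL1 and VGLL3 differed by 0.18 ± 0.16 and -0.02 ± 0.07 (SE), with VGLL3 below the lower quartile in both groups. Neither was called, although VGLL1 passed without parental replicate 1, at 0.36.

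The kinase cascade upstream of YAP and TAZ showed small changes in both directions. Of 32 genes 24 were measured; 6 rose, 4 fell and 14 were not called, or 41.7% called against 46.0% of all genes, with a median of 0.06 and a range from -0.63 to 0.65 on the log2 scale. None reached 2-fold by its brightest probe set. STK38L, the LATS-related kinase NDR2, rose 1.56-fold, and by 1.36 on the log2 scale on its dimmer probe set, and the related STK38 rose 1.31-fold. STK4, which encodes MST1, rose 1.33-fold on its brightest probe set, but 1 WZR6 array lay below the highest parental array. This call was lost without WZR6 replicate 1 or 2 or parental replicate 1 or 3, at differences from 0.32 to 0.40. The dimmer probe set of STK4 was called higher as well, by 0.35 on the log2 scale (adjusted p = 0.00604 in limma). WWC3, a scaffold of the KIBRA family, rose 1.38-fold. BTRC, the F-box protein that marks phosphorylated YAP and TAZ for degradation, fell 1.55-fold on its brightest probe set, while its 2 others differed by -0.05 and -0.09 and were not called. MAP4K4, a kinase that acts on LATS beside MST1 and MST2, fell 1.26-fold on its brightest probe set, and its other was called lower too. The LATS kinase gene on the array, LATS1, differed by -0.06 ± 0.11 (SE, adjusted p = 0.722 in limma) at a level below the lower quartile in both groups, and the scaffold SAV1 by 0.09 ± 0.05 (adjusted p = 0.159). MOB1A is uncertain, since its brightest probe set was called at 0.15 and 2 others at -0.37 and -0.46.

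Relatives of the genes above went their own ways. CCN5, a CCN family protein that lacks the C-terminal domain of CCN1 and CCN2, read 7.38, 7.26 and 7.19 in WZR6 arrays, against 10.10, 9.96 and 10.02 in parental arrays. It was 6.71-fold lower (6.00 to 7.51, adjusted p = 7.22e-07 in limma), a larger change than that of any of the 13 probe sets and opposite to CCN1 and CCN2. CCN6 rose by 0.32 ± 0.08 (SE), with both groups below the lower quartile, and CCN3, CCN4 and ANKRD2, a relative of ANKRD1, were not called, with differences of 0.00, -0.05 and 0.02. PTPN21, the paralog of PTPN14, fell 1.26-fold on its brightest probe set, and its 3 others were not called. In all, 3 of 6 paralogs were called, close to the 46.0% of all genes.

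**Figure D3:**
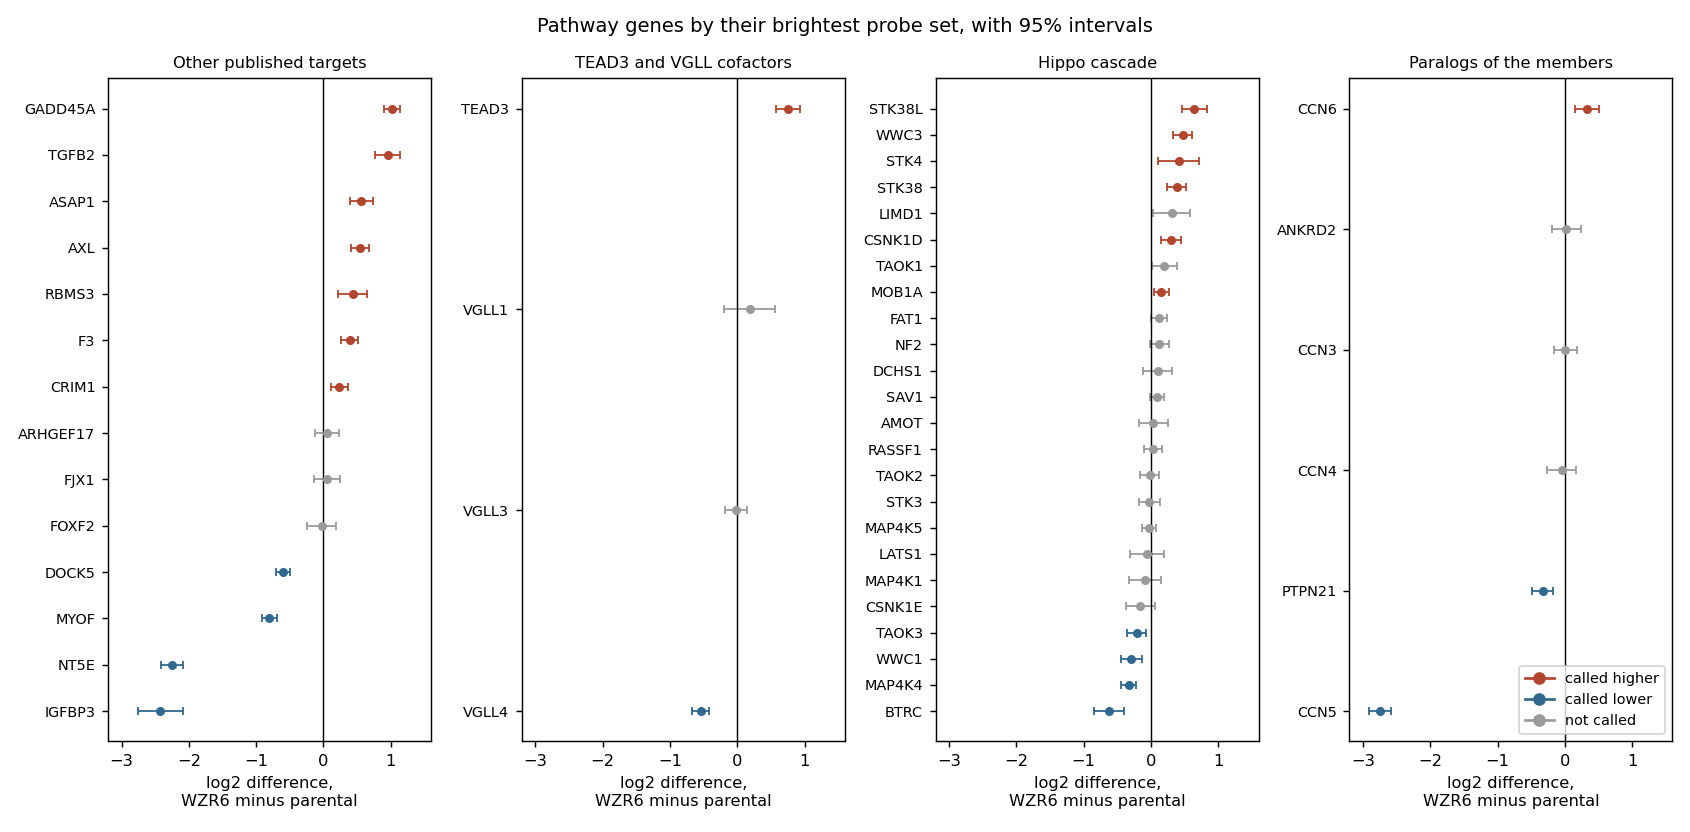
Log2 difference, WZR6 minus parental (x axis), with its 95% interval, for each measured gene (y axis, sorted) of 4 lists: other published targets of YAP and TAZ, TEAD3 with the VGLL cofactors, the Hippo cascade, and paralogs of the genes described. Targets spread from -2.42 for IGFBP3 to 1.02 for GADD45A, and Hippo cascade genes stay between -0.63 and 0.65.

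Neighbouring genes were set beside each gene, since genes that lie together on a chromosome can differ together in a clone. The 10 nearest measured genes on either side were taken in the order of the RefSeq table of GRCh38.p14. ANKRD1, on chromosome 10, stood above its surroundings: it differed by 2.40, against a highest value of 1.22 among its 20 neighbours. That highest value belongs to the gene next to it, PPP1R3C, which was called higher. The 20 neighbours had a median difference of -0.01, with 5 higher and 8 lower. CCN1, on chromosome 1, also exceeded all 20 of its neighbours, whose median was 0.16 with 9 higher and 1 lower. It differed by 1.30, however, against 1.26 for the gene next to it, DDAH1, an enzyme that degrades a methylated arginine. CCN2, on chromosome 6, differed by 1.05, against 1.13 for the adjacent ENPP1, and was exceeded by 3 of its 20 neighbours. Of these 20 genes 10 were higher and 0 lower, with a median of 0.18. WWTR1 and AMOTL2 are both on chromosome 3. Of the 20 neighbours of WWTR1 8 were lower, 0 higher and 12 not called, with a median of -0.08, and of those of AMOTL2 11 were lower, 0 higher and 9 not called, with a median of -0.37. Among all genes 23.3% were higher and 22.7% lower. AMOTL2, at -0.20, was less lowered than that median. YAP1, at 0.25 on chromosome 11, had neighbours with a median of 0.07, of which 4 were higher and 6 lower. Directly after it lie BIRC2 and TMEM123, which were called higher at 0.80 and 0.69. TRPC6, directly before it, differed by 0.06 and was not called. Of the 3 genes that were not called, TEAD1, on chromosome 11, had 11 higher and 2 lower neighbours with a median of 0.17, TEAD4, on chromosome 12, 6 higher and 2 lower with a median of 0.09, and PTPN14, on chromosome 1, 6 higher and 5 lower with a median of 0.01. The part of the surroundings in the differences of YAP1, WWTR1, CCN1, CCN2, ANKRD1 and AMOTL2 was not tested. DDAH1 belongs to the genes named by likeness below. ENPP1, PPP1R3C, BIRC2, TMEM123 and TRPC6 were named after their values were seen.

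**Figure D4:**
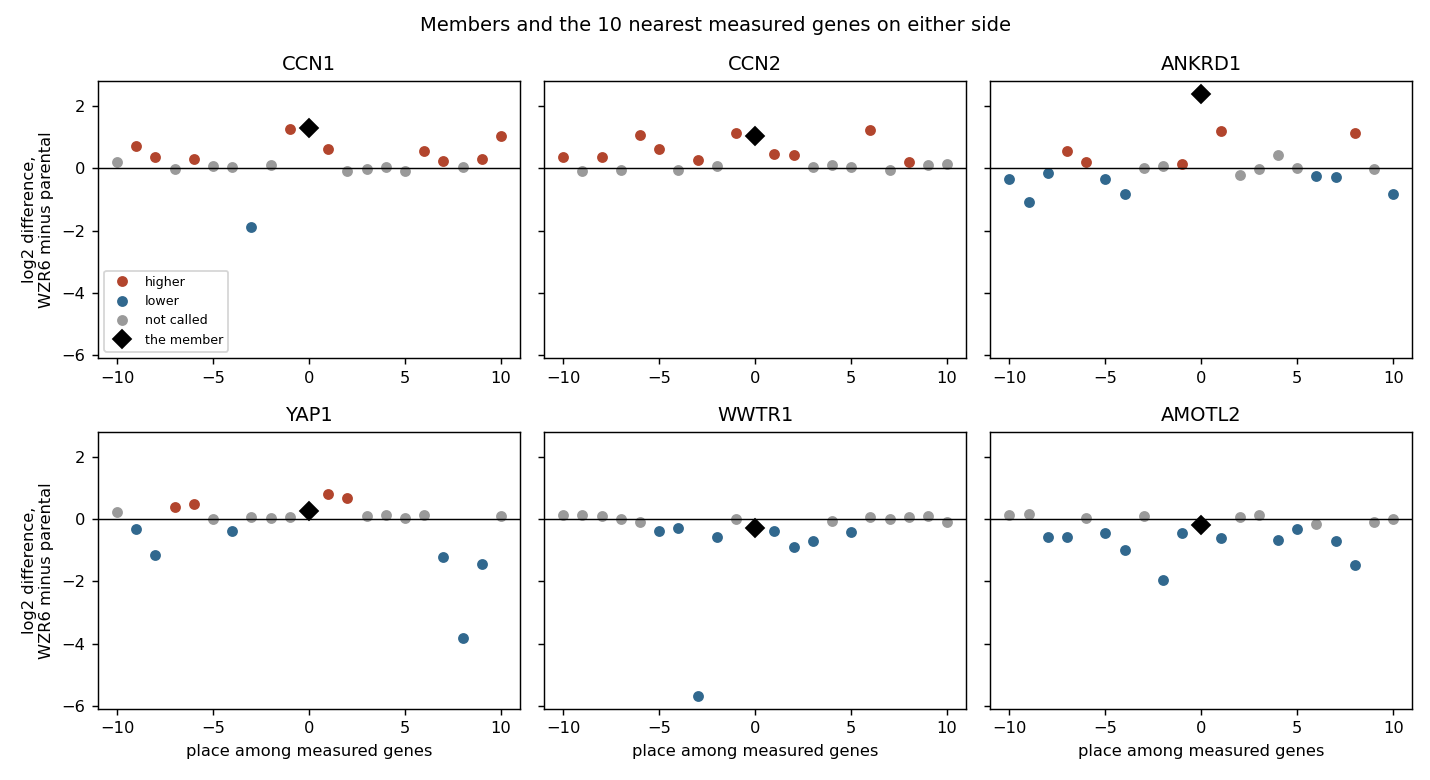
Log2 difference, WZR6 minus parental (y axis), of CCN1, CCN2, ANKRD1, YAP1, WWTR1 and AMOTL2 (diamonds) and of the 10 nearest measured genes on either side (points), by place in gene order (x axis). ANKRD1 lies well above its neighbours, the highest of which is adjacent to it. CCN1 and CCN2 each have an adjacent gene at a similar height, and YAP1 has an adjacent gene that lies above it. WWTR1 and AMOTL2 have 0 neighbours called higher.

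The genes whose log2 profiles over the 6 arrays lay closest to ANKRD1, CCN1 and CCN2 were also listed, as a description without a test, by the Euclidean distance between profiles centred on their own means. Since the 6 arrays form only 2 groups, this mostly picks genes with a difference of the same size. Closest to ANKRD1 were NBEA, an anchoring protein of vesicle traffic, TMEM47, a membrane protein of cell junctions, and GPRC5B, an orphan receptor, with differences of 2.35, 2.32 and 2.40 and distances of 0.147, 0.186 and 0.266. Closest to CCN1 were its neighbour DDAH1, the cytokine signaling inhibitor SOCS2 and the cytoskeletal protein DPYSL3, with differences of 1.26, 1.28 and 1.22. Closest to CCN2 were the histone chaperone DAXX, the glutathione transferase GSTM3 and RGS3, a regulator of G protein signaling, with differences of 0.97, 1.08 and 1.06. None of these 9 genes is on the lists of the pathway used here.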

How the data were processed

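Each of the 6 samples was hybridised to its own oligonucleotide array after oligo-dT primed cDNA synthesis and biotin labelling, per the labels. The deposited values are intensities, linear, from 9.87 to 44567, which the authors made with RMA (background correction, quantile normalization, summary per probe set), per the submitters' processing notes. The version of RMA is not given in the sources here, and there are no detection calls. Intensities were converted to log2 without a pseudocount. Of 22277 probe sets 62 controls were left out. A single gene was annotated for 19064 probe sets, and in lists each gene was read from its brightest such probe set, by the mean of all 6 arrays.

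Sample titles gave the groups. The difference, WZR6 minus parental, was fitted in R 4.3.3 using limma 3.58.1 (lmFit, eBayes, two-sided) over 22215 probe sets, with Benjamini-Hochberg adjustment over all of them and calls at an adjusted p under 0.05. The fit was tested on simulated data. Intervals have 95% confidence and a fold is a ratio of geometric means. No source says that replicates came from separate cultures, so p-values measure the spread between these samples, and 3 arrays per group limit the precision. Replicate numbers were not taken as pairs: deviations of same-numbered arrays correlated with r from -0.0119 to 0.226.

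Lists were the Hippo cascade, TEAD partners, a published YAP and TAZ target signature, and paralogs, besides epithelial, leukocyte, endothelial and fibroblast markers. In each pathway list up to 6 called genes with the largest differences are named, with all measured TEAD partners. The members and lists were chosen with earlier results of these data known. Promoter windows are from RefSeq, GRCh38.p14. Plots were made in Python 3.11.15 (matplotlib 3.10.9). Alternatives changed the scaling, the filter, the pseudocount, the floor, the variance model, the replicate block, the probe sets used and the arrays included.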

Additional observations from a re-analysis of the deposited data

How the results depend on the processing

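The 5 calls upwards held in every alternative that measured the probe set, with ANKRD1 between 2.11 and 2.48, CCN2 between 1.02 and 1.09 and YAP1 between 0.21 and 0.29, and so did the 3 calls of WWTR1. AMOTL2 was not called with median centring (-0.16, adjusted p = 0.083), with the floor or without 5 of the 6 arrays in turn. TEAD1, TEAD4 and PTPN14 were not called in any alternative that measured them. PTPN14 lay below the median of all values on every array, so the floor could not have called it and the filter on dim probe sets left it out. With 1 probe set per gene 2 members were called lower in place of 4, and 5748 genes were called over the array in place of 9131 probe sets, since fewer were tested. Without _x_at and _s_at probe sets 4245 were called over the array, 4 Hippo cascade genes in place of 10, 0 TEAD partners in place of 2 and 5 other targets in place of 11. In the pathway lists, the brightest probe set of 21 genes stayed in, and each of these genes kept its result. The other genes were no longer measured, as TEAD3 and VGLL4, or were read from a dimmer probe set. With the filter on dim probe sets, and with the floor, 1 paralog was called in place of 3. Leaving out each array in turn gave 5 member probe sets higher, 3 to 4 lower, 7759 to 8415 calls over the array, 7 to 9 Hippo cascade genes, 2 to 3 TEAD partners, 11 other targets and 3 paralogs. With the replicate number as a block, 9029 probe sets were called in all, 5 member probe sets higher and 4 lower; of the genes in the text the block ended only the call of MOB1A, and arrays did not all correlate best with their own number. Decreases made up 47.4% of all calls, 52.6% with cyclic loess and 40.1% with median centring. Of the named genes, CCN6, DOCK5, RBMS3, BTRC, PTPN21 and STK4 were not called with the floor, and CCN6 also not with a pseudocount of 32. Without detection calls, the array cannot say which dim genes, such as LATS1 or VGLL3, were above background.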
